A study of Mus musculus with 18 samples.

Results

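The Bcl2 family sets the threshold for mitochondrial apoptosis. Its transcripts were followed here for 8 members, Bcl2, Bcl2l1, Mcl1, Bax, Bak1, Bid, Bmf and Bbc3, out of 47729 genes in a count table of mouse colon RNA. The members were taken as a list of gene names. All 8 were among the 16937 genes that had enough reads to be tested.

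The family is built around the BH3 helix, a short stretch that fits into a groove on its partners. The prosurvival proteins Bcl-2, Bcl-xL (from Bcl2l1) and Mcl-1 hold the effectors Bax and Bak (from Bak1) in check at the mitochondrial outer membrane. BH3-only proteins such as Bid, Bmf and Puma (from Bbc3) sense damage and either occupy the prosurvival groove or activate the effectors, which then release cytochrome c and start the caspases. In the intestine the balance decides the survival of crypt and villus cells after DNA damage, and Mcl-1, a protein of short half-life, is needed to keep the intestinal epithelium intact.

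RNA from the colon of WT and Cldn2KO mice was sequenced on the C57BL/6 background, with Cldn2KO meaning a knockout of claudin-2, a pore-forming tight junction protein. The WT animals were littermates according to the study's methods. Each genotype had 3 libraries of untreated controls, 3 of mice recovering from colitis caused by dextran sodium sulfate (DSS) and 3 of mice in which tumours were induced with the carcinogen azoxymethane followed by DSS (AOM/DSS). The labels give a single AOM dose of 10 mg/kg and 3 cycles of 2.5% DSS, and they give neither the DSS dose of the recovery arm nor the animals' age. The RNA came from bulk colon tissue, so a transcript may be lower because its cells were fewer or because each cell held less of it, and these cannot be told apart. Nothing in the labels says beyond an animal number how replicates were raised, so p-values measure the spread between these libraries.

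What makes the 8 genes 1 family can be read in their coding sequence. The 12 codons around the BH3 core are shown for each member, since this core is the part by which prosurvival proteins, effectors and BH3-only proteins bind each other. Capitals mark the codons of the conserved leucine, of the small residue at the fifth position and of the aspartate that follows it (GENCODE M21 transcripts, GRCm38, 5′ to 3′).
Bcl2: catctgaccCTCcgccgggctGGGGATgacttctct
Bcl2l1: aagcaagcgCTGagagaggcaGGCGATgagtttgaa
Mcl1: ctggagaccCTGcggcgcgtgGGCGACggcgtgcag
Bax: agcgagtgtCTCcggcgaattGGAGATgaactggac
Bak1: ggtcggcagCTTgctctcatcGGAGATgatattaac
Bid: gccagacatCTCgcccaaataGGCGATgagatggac
Bmf: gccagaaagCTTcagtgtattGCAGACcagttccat
Bbc3: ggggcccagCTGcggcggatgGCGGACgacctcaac
The pattern was found exactly 1 time in the longest coding sequence of every member. The small residue was glycine in the 3 prosurvival members, in Bax, in Bak1 and in Bid, and alanine in the BH3-only members Bmf and Bbc3. The core lay at residues 194 to 199 of 331 in Mcl1 and at residues 94 to 99 of 236 in Bcl2, and this longer stretch ahead of the core is a known feature of Mcl-1.

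Cldn2 itself followed the labels, with 44.5 to 504 CPM (read counts divided by the library total in M reads, scaled by the trimmed mean of M values) in the 9 WT libraries and 0.0555 to 0.557 CPM in the 9 Cldn2KO libraries. Libraries held between 17.6 and 27.4 M assigned reads. Epithelial RNA was present throughout, with 1815 to 2434 CPM of Epcam, although other epithelial genes were lower in treated WT colon. The posterior colon gene Hoxb13 was under 10 CPM in 7 libraries, namely all 6 recovery libraries and WT control replicate 2, and was 198 to 570 CPM in the other 11. Xist, made from the inactive X chromosome, exceeded 10 CPM in 6 libraries, which were replicates 2 and 3 of WT recovery, Cldn2KO recovery and Cldn2KO AOM/DSS. All 5 posterior colon Hox genes read were called lower in recovery, at a median log2 of −10.3 in WT and −10.8 in Cldn2KO (edgeR). Recovery was therefore compared with controls that mostly differed from it in these genes, and the 2 differences cannot be told apart in most libraries. The study's text gives distal colon as the source of the recovery RNA, and whether the libraries differ in colon region was not tested. The recovery values of the members and of the called pathway genes are also given with a term for Hoxb13 in the fit. In summed levels of marker genes, WT control replicate 2 was near the other WT controls and above both recovery groups for 8 B and plasma cell genes (773 CPM, against 91.4 to 132 CPM in WT recovery), 8 macrophage genes (87.5 against 20.1 to 28.4 CPM) and 8 smooth muscle genes (4034 against 704 to 2090 CPM). For 10 T and NK cell genes it was at 145 CPM, where WT recovery ran from 58.3 to 178 CPM and the other WT controls had 11.5 and 16.6 CPM. What set this library apart was not tested.

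Among the 8 members the transcripts kept a steep order per exon length, in CPM per kilobase of exon. Mcl1 ranked 1, Bax ranked 2 and Bak1 ranked 3 in every one of the 18 libraries. In the WT controls the mean level was 179 ± 38.9 for Mcl1, 48.6 ± 6.59 for Bax and 39.8 ± 4.30 for Bak1 (SD, n = 3), the ranges of Bax and Bak1 overlapping. Bcl2l1 followed at 9.73 ± 2.36 and Bid at 6.54 ± 0.344 (SD, n = 3). Bbc3 at 3.13 ± 0.271 and Bmf at 2.72 ± 0.963 overlapped each other, and Bcl2 was lowest at 1.34 ± 0.118 (SD, n = 3). The effectors thus stood far above the BH3-only members at the transcript level, and Bcl2, the founding member, stood at rank 6 to 8 in all libraries.

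**Figure D1:**
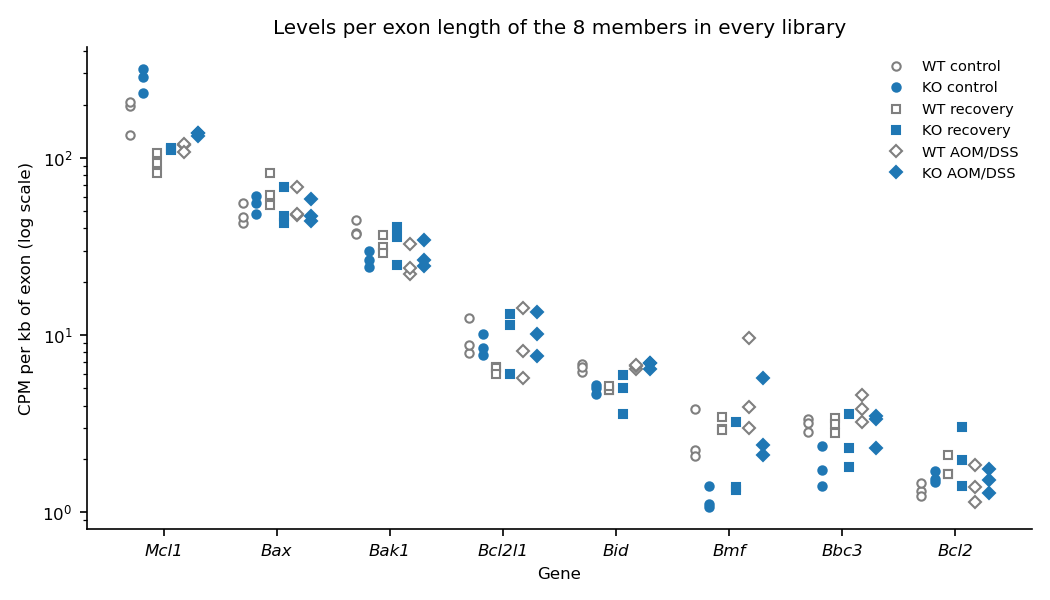
Level of each of the 8 members in all 18 libraries, in CPM per kilobase of exon on a log axis, 1 point per library with WT open and Cldn2KO filled. Mcl1 is highest and Bax next in every library, while Bmf spreads most and overlaps Bbc3 and Bcl2.

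The order was stable at its upper end and loose at its lower end across conditions. In WT recovery the ranges of Mcl1 (82.6 to 107 CPM per kilobase) and Bax (54.6 to 82.7) overlapped, which they did in no other group. Bmf moved between rank 5 and rank 8, being the lowest member on average in the Cldn2KO controls (1.20 ± 0.188 CPM per kilobase, SD, n = 3) and in Cldn2KO recovery (1.99 ± 1.08), and rank 6 in both AOM/DSS groups. Mcl1 made up 87.2% to 97.0% of the summed level of the 3 prosurvival members over the libraries, with 95.2% to 97.0% in the Cldn2KO controls and 90.8% to 95.5% in the WT controls. The ratio of Bax to Bcl2 on the same scale ran from 15.5 to 50.3 with a median of 36.4, and the ranges of all 6 groups overlapped.

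**Figure D2:**
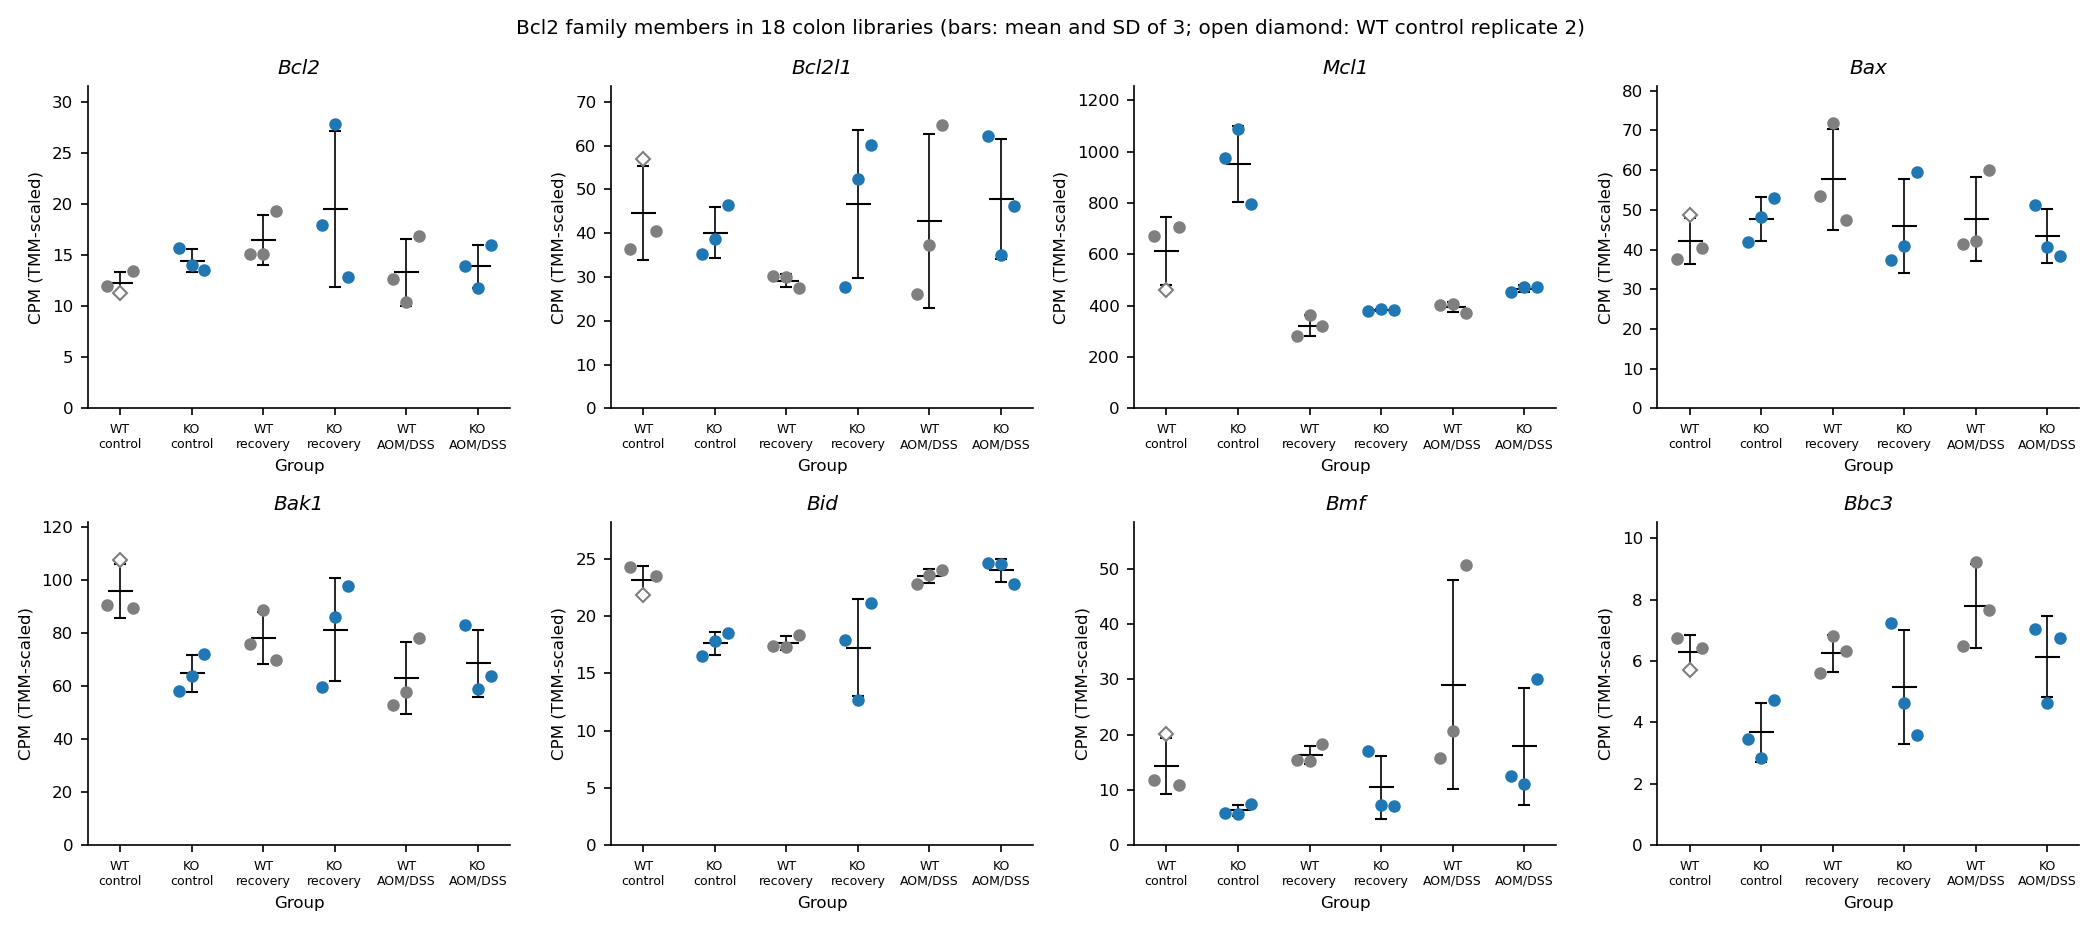
CPM of each member in every library (points), with the mean and SD of 3 libraries per group (bars), WT in grey and Cldn2KO in blue, and WT control replicate 2 as an open diamond. Mcl1 is lower in all 12 treated libraries (282 to 475 CPM) than in 5 of the 6 controls (673 to 1087 CPM), with WT control replicate 2 (461 CPM) among the Cldn2KO AOM/DSS libraries.

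Of the 8 members Mcl1 alone was called by the edgeR quasi-likelihood test in any comparison, and it fell in all 4 comparisons of treated with untreated colon. This was 1 of 8 members in each, beside 22.2% of all genes called for recovery in WT, 19.4% for recovery in Cldn2KO, 10.4% for AOM/DSS in WT and 0.195% for AOM/DSS in Cldn2KO. The count over the members was therefore below the share over all genes for recovery in both genotypes and close to it for AOM/DSS in WT. In the AOM/DSS comparison within Cldn2KO only 33 genes of 16937 were called, and Mcl1 was 1 of them. Other tools called further members beside Mcl1. DESeq2 called Bak1 in WT AOM/DSS and Bmf in Cldn2KO AOM/DSS, and limma-voom called Bax, Bak1 and Bid in WT recovery, Bak1 in Cldn2KO recovery and in WT AOM/DSS, and Bid, Bmf and Bbc3 in Cldn2KO AOM/DSS. Recovery and AOM/DSS were compared with the same control libraries within each genotype, so these results are not separate observations.

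Mcl1 (ENSMUSG00000038612, chr3:95658788-95663176, plus strand) encodes the prosurvival protein that binds Bak and most BH3-only proteins. It had 673, 461 and 705 CPM in the WT controls and 282, 365 and 321 CPM in WT recovery. All 3 recovery libraries lay below all 3 controls, and the fold change was 1.90-fold lower (log2 −0.93, SE 0.169, adjusted p = 0.00228, edgeR quasi-likelihood test). In Cldn2KO it had 977, 1087 and 795 CPM in controls and 378, 389 and 383 CPM in recovery, again with no overlap. This was 2.49-fold lower (log2 −1.31, SE 0.171, adjusted p = 0.000296).

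Mcl1 also fell after AOM/DSS in both genotypes, and its difference from the recovery groups was not tested. WT AOM/DSS libraries had 403, 408 and 372 CPM of Mcl1, all below the lowest WT control, at 1.56-fold lower (log2 −0.64, SE 0.169, edgeR adjusted p = 0.0318). Cldn2KO AOM/DSS libraries had 453, 474 and 475 CPM, which lay close together and far below the Cldn2KO controls, at 2.04-fold lower (log2 −1.03, SE 0.170, edgeR adjusted p = 0.0367). Depth did not limit these values, as Mcl1 drew at least 5083 reads in every library. The difference between the genotypes' responses did not pass the test, at log2 −0.39 (SE 0.238, adjusted p = 0.406) for recovery and log2 −0.39 (SE 0.238, adjusted p = 0.673) for AOM/DSS.

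The Mcl1 calls differed in how much they rested on single libraries and terms. With a term for Hoxb13 under 10 CPM, which only WT control replicate 2 among the non-recovery libraries carries, Mcl1 was at log2 −0.51 in WT recovery (adjusted p = 0.0994, edgeR) and −0.73 in Cldn2KO recovery (adjusted p = 0.199). Without WT control replicate 2 the fall in WT recovery was larger, at log2 −1.12 (adjusted p = 0.00011). For AOM/DSS the call was lost when any of WT AOM/DSS replicates 1, 2 or 3 or WT control replicate 1 or 3 was left out, at log2 −0.53 to −0.65 and an adjusted p of 0.0535 to 0.119. It was lost as well without the filter on low counts (adjusted p = 0.0619) and in a fit of the WT control and AOM/DSS libraries alone (adjusted p = 0.186, both edgeR). In Cldn2KO AOM/DSS it was lost without any control replicate or without AOM/DSS replicate 1 or 3, at log2 −0.92 to −1.11 and an adjusted p of 0.054 to 0.238. With a term for Xist over 10 CPM it was lost too, at log2 −1.11 (adjusted p = 0.109, edgeR), where 2 of the 3 AOM/DSS libraries and none of the controls carried Xist. The sign was negative under all 13 alternatives in each of these 4 comparisons.

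Markers of the epithelium and of other cells of the colon wall also moved in recovery and in WT AOM/DSS. In Cldn2KO AOM/DSS, where Mcl1 fell as well, none of these marker genes was called by edgeR. Of 10 epithelial genes 4 fell in WT recovery (Cdh1, Krt20, Vil1 and Cldn7) and 4 in WT AOM/DSS (Krt20, Vil1, Cdx2 and Cldn7) by the edgeR test, while 1 (Cdx2) rose in Cldn2KO recovery and 0 were called in Cldn2KO AOM/DSS. The fall of Cdx2 rested on WT control replicate 2. Cdx2 had 18.6, 337 and 26.0 CPM in WT controls and 24.5, 22.0 and 13.6 CPM in WT AOM/DSS. It had 221 to 242 CPM in WT recovery, 214 to 242 CPM in Cldn2KO recovery and 27.9 to 31.0 CPM in Cldn2KO controls. The sum of the 10 was 22640 to 23220 CPM in WT controls, 15080 to 23170 CPM in WT recovery and 12470 to 17380 CPM in WT AOM/DSS. In Cldn2KO it was 17890 to 21660 CPM in controls, 16600 to 20400 CPM in recovery and 14940 to 19340 CPM after AOM/DSS. The summed level of 8 smooth muscle genes was 3785 to 5676 CPM in WT controls and 7733 to 10140 CPM in Cldn2KO controls. It was 704 to 2090 CPM in WT recovery, 825 to 1459 CPM in Cldn2KO recovery, 566 to 2972 CPM in WT AOM/DSS and 2358 to 5879 CPM in Cldn2KO AOM/DSS. By the same test 5 of the 8 fell in WT recovery, 8 in Cldn2KO recovery, 3 in WT AOM/DSS and 0 in Cldn2KO AOM/DSS. Of 8 macrophage genes 7 fell in WT recovery and 6 in Cldn2KO recovery, the sums being 87.5 to 116 CPM in WT controls, 48.1 to 107 CPM in Cldn2KO controls and 13.87 to 28.4 CPM over the recovery libraries. Of 8 B and plasma cell genes 5 fell in WT recovery and 3 in Cldn2KO recovery. None of the macrophage or B and plasma cell genes was called after AOM/DSS in either genotype. Of 10 T and NK cell genes 5 rose in Cldn2KO recovery, while 1 fell in WT recovery and 1 in WT AOM/DSS. Of 8 genes of enteric neurons and glia 5 fell in WT AOM/DSS and 0 were called in the other 3 comparisons. The 6 neutrophil genes did not move together. Ly6g was 343 to 529 CPM in 5 controls, 0.589 CPM in WT control replicate 2 and 6.89 to 80.5 CPM in the recovery libraries. The other 5 summed to 0.333 to 2.52 CPM in the controls, 2.73 to 21.7 CPM in recovery and 2.71 to 331 CPM after AOM/DSS, the highest being WT AOM/DSS replicate 3. By the edgeR test S100a8 and S100a9 rose in Cldn2KO recovery, and S100a8, S100a9 and Csf3r rose in WT AOM/DSS. The part of these shifts in the Mcl1 result was not tested.

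**Figure D3:**
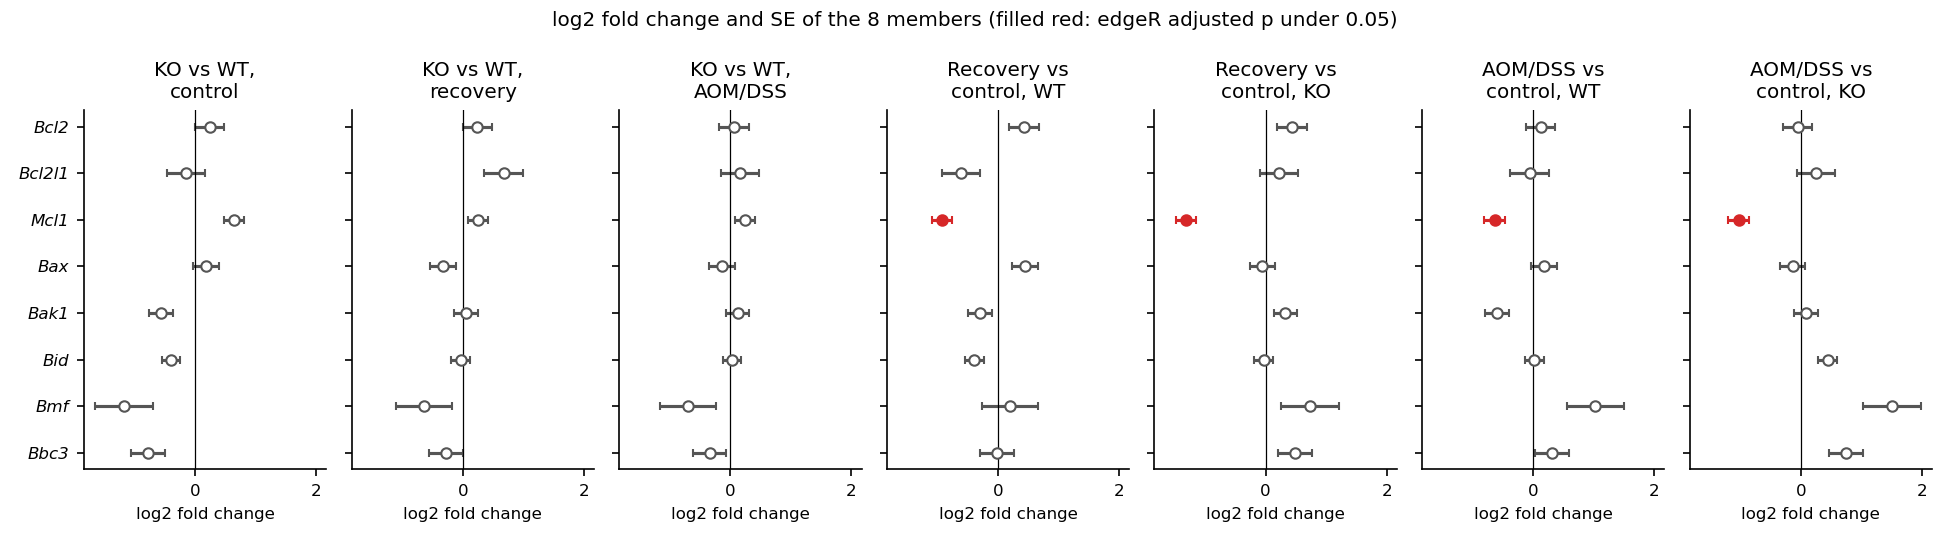
log2 fold change (x axis) and SE of each member in the 3 comparisons of genotype and the 4 comparisons of treatment, with filled red points for an edgeR adjusted p under 0.05. The only filled points are those of Mcl1, at log2 −0.93, −1.31, −0.64 and −1.03 in the 4 treatment comparisons.

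Between genotypes no member was called in any treatment, although in untreated colon 6 of the 8 did not overlap. Mcl1 and Bcl2 were at higher values and Bak1, Bid, Bmf and Bbc3 at lower values in all 3 Cldn2KO controls than in all 3 WT controls, beside 22.3% of all genes without overlap in either direction. The edgeR test called 1.17% of all genes and 0 of 8 members, the lowest adjusted p being 0.0827 for Mcl1. At an unadjusted p under 0.05 there were 5 members, beside 13.1% of all genes. DESeq2 called 1 member (Mcl1) and limma-voom called 4 (Mcl1, Bak1, Bid and Bbc3), so the call for the untreated colon depended on the tool.

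In recovery and after AOM/DSS no member was called between genotypes either. In recovery the edgeR test called 0 of 8 members and 0.974% of all genes, with 0 members and 19.9% of genes at an unadjusted p under 0.05. After AOM/DSS it called 0 of 8 members and 0.0059% of all genes, with 0 members and 5.6% of genes at an unadjusted p under 0.05. DESeq2 and limma-voom also called 0 members in both. Mcl1 was the only member without overlap in either, higher in Cldn2KO by log2 0.25 in recovery (adjusted p = 0.443) and by log2 0.25 after AOM/DSS (adjusted p = 0.883), where 23.9% and 11.3% of all genes did not overlap. After AOM/DSS genotype went partly with Xist, which replicates 2 and 3 of Cldn2KO and no WT library carried. With a term for Xist over 10 CPM the Mcl1 value after AOM/DSS was log2 0.16.

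The genotypes' responses were also compared directly. For recovery the difference of responses was called for 0.13% of all genes and 0 of 8 members, with 1 member (Bak1) and 18.5% of genes at an unadjusted p under 0.05. For AOM/DSS it was called for 0.0118% of genes and 0 of 8 members, with 1 member (Bak1) and 8.44% of genes at an unadjusted p under 0.05. For recovery limma-voom called 1 member and DESeq2 called 0, and for AOM/DSS both called 0.

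In the untreated colon Mcl1 was 1.56-fold higher in Cldn2KO than in WT at log2 0.64 (SE 0.169), with the adjusted p of 0.0827 given above. The lowest Cldn2KO control of Mcl1 (795 CPM) was above the highest WT control (705 CPM). Without WT control replicate 2 the difference was log2 0.44 (edgeR adjusted p = 0.278).

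Bcl2 (ENSMUSG00000057329, chr1:106538178-106714274, minus strand), the first prosurvival member known, was low throughout and was called by none of edgeR, DESeq2 and limma-voom. It had 11.99, 11.3 and 13.4 CPM in WT controls, 15.7, 14.04 and 13.6 CPM in Cldn2KO controls, 15.1, 15.1 and 19.3 CPM in WT recovery and 17.9, 27.8 and 12.8 CPM in Cldn2KO recovery. After AOM/DSS it had 12.6, 10.5 and 16.9 CPM in WT and 13.98, 11.8 and 15.96 CPM in Cldn2KO. WT recovery lay above WT controls in all libraries, at log2 0.43 (SE 0.247, edgeR adjusted p = 0.226), while Cldn2KO recovery held both a low and the highest value of the series. Between genotypes after AOM/DSS the difference was log2 0.06 (SE 0.245, adjusted p = 0.984). An antisense gene, D630008O14Rik, shares 6.09% of the Bcl2 exon bases, and the strand setting of the counting is not given in the sources used here, so the Bcl2 counts are uncertain to that extent.

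Bcl2l1 (ENSMUSG00000007659, chr2:152780668-152831728, minus strand), whose main product Bcl-xL protects epithelial cells, varied widely within groups. It had 36.5, 56.9 and 40.5 CPM in WT controls and 30.2, 30.0 and 27.5 CPM in WT recovery, which did not overlap, at log2 −0.61 (SE 0.321, edgeR adjusted p = 0.184). In Cldn2KO it had 35.2, 38.7 and 46.5 CPM in controls and 27.7, 52.3 and 60.2 CPM in recovery, where it spread on both sides of the controls. After AOM/DSS it ranged from 26.1 to 64.8 CPM in WT and from 35.0 to 62.2 CPM in Cldn2KO. Cldn2KO against WT in recovery was at log2 0.68 (SE 0.321, adjusted p = 0.254), and there 1 Cldn2KO library (27.7 CPM) lay within the WT range.

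Bax (ENSMUSG00000003873, chr7:45461695-45466898, minus strand), the effector that moves from the cytosol to mitochondria, had the smallest ratio of highest to lowest library among the members, 1.92, at 37.4 to 71.9 CPM. It had 37.5, 48.6 and 40.5 CPM in WT controls and 53.6, 71.9 and 47.4 CPM in WT recovery, at log2 0.45 (SE 0.212, edgeR adjusted p = 0.137). The lowest recovery library lay below the highest control. In Cldn2KO it had 41.8, 48.3 and 53.01 CPM in controls, 37.4, 40.9 and 59.5 CPM in recovery and 51.2, 40.8 and 38.5 CPM after AOM/DSS. WT AOM/DSS libraries had 41.3, 42.0 and 59.9 CPM, so no Cldn2KO group stood apart from the WT group of the same treatment.

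Bak1 (ENSMUSG00000057789, chr17:27019810-27029009, minus strand), the effector that resides on mitochondria and is held by Mcl-1, was highest in untreated WT colon. It had 90.4, 108 and 89.3 CPM in WT controls, above the 58.3, 63.9 and 72.2 CPM of Cldn2KO controls, at log2 −0.57 in Cldn2KO (SE 0.196, edgeR adjusted p = 0.199). In WT it was also lower without overlap in recovery (75.8, 88.7 and 69.7 CPM, log2 −0.30, adjusted p = 0.295) and after AOM/DSS (53.01, 57.8 and 78.3 CPM, log2 −0.60, SE 0.196, adjusted p = 0.0581). In Cldn2KO the treated libraries were not below controls, with 59.8, 86.2 and 97.7 CPM in recovery and 82.9, 59.0 and 63.7 CPM after AOM/DSS.

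The response of Bak1 in Cldn2KO exceeded that in WT by log2 0.62 for recovery (SE 0.276, edgeR adjusted p = 0.243) and by log2 0.68 for AOM/DSS (SE 0.276, adjusted p = 0.536), neither of which passed. Both differences use the same control libraries. With limma-voom the recovery difference passed (adjusted p = 0.0275). Ggnbp1 on the other strand shares 14.8% of the Bak1 exon bases, so part of these reads cannot be assigned with certainty. On the per-length scale the ratio of Bak1 to Mcl1 was 0.0834 to 0.129 in Cldn2KO controls, 0.1799 to 0.332 in WT controls, 0.309 to 0.381 in WT recovery and 0.225 to 0.362 in Cldn2KO recovery. After AOM/DSS the ratio was 0.187 to 0.299 in WT and 0.177 to 0.260 in Cldn2KO, so Cldn2KO controls held the lowest ratios without overlapping any other group.

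Bid (ENSMUSG00000004446, chr6:120891930-120916853, minus strand), the BH3-only protein that caspase-8 cleaves to link death receptors with mitochondria, had close replicates outside Cldn2KO recovery. It had 24.3, 21.9 and 23.5 CPM in WT controls, 22.8, 23.6 and 24.0 CPM in WT AOM/DSS and 24.6, 24.5 and 22.8 CPM in Cldn2KO AOM/DSS. It had lower values in Cldn2KO controls (16.5, 17.9 and 18.5 CPM), WT recovery (17.4, 17.3 and 18.4 CPM) and Cldn2KO recovery (17.9, 12.7 and 21.1 CPM).

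None of the Bid differences passed the edgeR test, while limma-voom called Bid in untreated Cldn2KO against WT, in WT recovery and in Cldn2KO AOM/DSS. Cldn2KO controls were at log2 −0.40 against WT controls (SE 0.154, edgeR adjusted p = 0.269) and WT recovery at log2 −0.39 against WT controls (SE 0.154, adjusted p = 0.0783). Cldn2KO AOM/DSS was at log2 0.44 against its controls (SE 0.154, adjusted p = 0.198), while WT AOM/DSS was at log2 0.02 against its own (SE 0.153, adjusted p = 0.957). Bcl2l13 on the other strand shares 17.7% of the Bid exon bases, the largest such share among the members.

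Bmf (ENSMUSG00000040093, chr2:118528757-118549687, minus strand), a BH3-only protein tethered to the cytoskeleton and linked to detachment from the matrix, had the widest range of the members, 5.60 to 50.8 CPM. It had 5.87, 5.60 and 7.43 CPM in Cldn2KO controls, below the 11.8, 20.1 and 10.9 CPM of WT controls, at log2 −1.18 (SE 0.476, edgeR adjusted p = 0.292). After AOM/DSS Cldn2KO libraries had 12.5, 11.1 and 30.1 CPM, all above their controls, at log2 1.51 (SE 0.477, adjusted p = 0.17), and without the highest library log2 0.92 (adjusted p = 0.622). DESeq2 (adjusted p = 0.0443) and limma-voom (adjusted p = 0.00485) called this difference with all libraries. WT AOM/DSS libraries had 15.7, 20.7 and 50.8 CPM, at log2 1.03 (SE 0.467, adjusted p = 0.153), and without the last of these the value was log2 0.36 (adjusted p = 0.663). Recovery libraries had 15.5, 15.2 and 18.2 CPM in WT and 17.03, 7.33 and 7.04 CPM in Cldn2KO, where 1 library was apart from the other 2.

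Bbc3 (ENSMUSG00000002083, chr7:16309616-16318205, plus strand), encoding Puma, a p53 target that drives apoptosis of intestinal cells after irradiation, was the least counted member, with 51 to 211 reads per library. It had 6.76, 5.70 and 6.42 CPM in WT controls and 3.45, 2.83 and 4.74 CPM in Cldn2KO controls, the lowest group, at log2 −0.78 (SE 0.281, edgeR adjusted p = 0.223). Cldn2KO AOM/DSS libraries had 7.04, 4.64 and 6.76 CPM, at log2 0.74 against controls (SE 0.280, adjusted p = 0.23), with 1 library within the control range. WT recovery had 5.62, 6.81 and 6.33 CPM and WT AOM/DSS had 6.49, 9.24 and 7.66 CPM, both overlapping the WT controls. Cldn2KO recovery had 7.23, 4.64 and 3.59 CPM. Over the 18 libraries the Pearson correlation of log2 CPM between Bmf and Bbc3 was 0.788, the highest of the 28 pairs of members, and the points share their groups and libraries.

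Untreated Cldn2KO colon therefore had Mcl1 at the highest and Bak1, Bid, Bmf and Bbc3 at or near the lowest values of the series, without a member passing the edgeR test. The same 2 control groups differed in other cells. Of 10 T and NK cell genes 4 were lower in Cldn2KO by the edgeR test, and the sum of the 10 was 11.5, 145 and 16.6 CPM in WT controls against 1.55 to 9.47 CPM in Cldn2KO controls. The sum of 8 B and plasma cell genes was 740 to 907 CPM in WT controls and 13.5 to 171 CPM in Cldn2KO controls, and that of 10 interferon-stimulated genes was 1113 to 1268 CPM against 345 to 532 CPM. The sum of 8 smooth muscle genes went the other way, at 3785 to 5676 CPM in WT controls and 7733 to 10140 CPM in Cldn2KO controls, with 0 of the 8 called. The part of these cells and genes in the differences of the members was not tested. In these samples the median log2 fold change was −0.27 over the 8 members and −0.01 over all genes.

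The members other than Mcl1 had no common direction under treatment. Against controls the median log2 fold change over all 8 members, Mcl1 included, was −0.15 for recovery in WT, 0.27 for recovery in Cldn2KO, 0.07 for AOM/DSS in WT and 0.17 for AOM/DSS in Cldn2KO, beside −0.04, 0.00, 0.01 and 0.01 over all genes. The groups did not overlap for 5 of 8 members for recovery in WT (37.7% of all genes), 1 of 8 for recovery in Cldn2KO (40.3%), 2 of 8 for AOM/DSS in WT (32.2%) and 3 of 8 for AOM/DSS in Cldn2KO (29.1%). In WT recovery these were Bcl2 above controls and Bcl2l1, Mcl1, Bak1 and Bid below them. In WT AOM/DSS they were Mcl1 and Bak1, both below, and in Cldn2KO AOM/DSS they were Mcl1 below and Bid and Bmf above.

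With the Hoxb13 term no member was called for recovery. In WT recovery Bcl2 was then at log2 0.54, Bcl2l1 at −0.96, Bax at 0.25, Bak1 at −0.47 and Bid at −0.31, each with the sign it had without the term. Bmf went from log2 0.19 to −0.30 and Bbc3 from log2 −0.01 to 0.13, both opposite in sign. Without WT control replicate 2 the WT recovery values were log2 0.36 for Bcl2, −0.42 for Bcl2l1, 0.54 for Bax, −0.23 for Bak1 and −0.45 for Bid. In Cldn2KO recovery the term turned Bcl2l1 from log2 0.22 to −0.34, Bid from −0.03 to 0.09 and Bmf from 0.73 to −0.09, and Bak1 went from 0.33 to 0.07. Bcl2 went from log2 0.44 to 0.60, Bax from −0.05 to −0.37 and Bbc3 from 0.49 to 0.70 there, each keeping its sign.

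Downstream of the family and around it, 25 further genes of mitochondrial apoptosis were read, of which 23 were tested. These were other prosurvival, effector and BH3-only genes, caspases, apoptosome and released factors, and inhibitors of apoptosis. None was called between genotypes in any treatment and none for the difference of responses, where 4, 8, 2, 4 and 1 of the 23 had an unadjusted p under 0.05 in untreated colon, recovery, AOM/DSS, the recovery response and the AOM/DSS response. Over all genes those shares were 13.1%, 19.9%, 5.6%, 18.5% and 8.44%. In WT recovery 5 rose and 1 fell, in Cldn2KO recovery 5 rose and 1 fell, in WT AOM/DSS 2 rose and 0 fell, and in Cldn2KO AOM/DSS 0 were called. As a share that was 26.1%, 26.1%, 8.696% and 0% of the 23, beside 22.2%, 19.4%, 10.4% and 0.195% of all genes, so the pathway shares were near the background.

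Casp6, an executioner caspase that cuts cellular substrates, rose in both recovery groups. It had 24.1, 42.5 and 25.9 CPM in WT controls and 54.7, 62.0 and 57.9 CPM in WT recovery (log2 0.92, SE 0.289, edgeR adjusted p = 0.0335). In Cldn2KO it had 20.1, 22.8 and 17.3 CPM in controls and 48.5, 44.9 and 44.0 CPM in recovery (log2 1.19, SE 0.292, adjusted p = 0.0104).

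**Figure D4:**
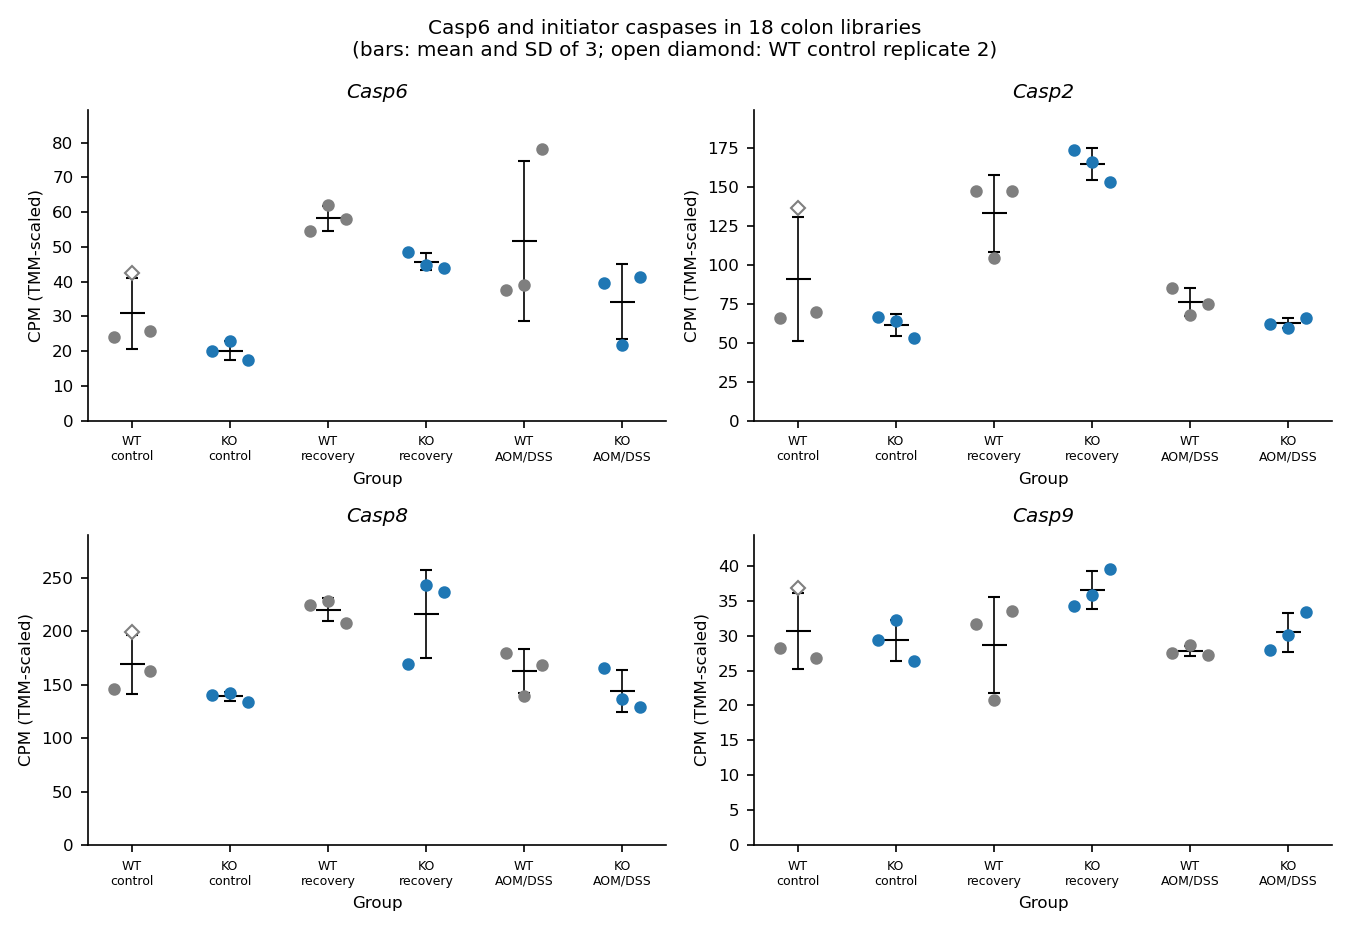
CPM of Casp6 and of 3 initiator caspases (Casp2, Casp8 and Casp9) in every library, with the mean and SD of 3 libraries per group, and WT control replicate 2 as an open diamond. That library (42.5 CPM of Casp6, 137 CPM of Casp2) lies above the other WT controls in all 4 genes, and towards or within the recovery libraries for Casp6, Casp2 and Casp8. Its 36.9 CPM of Casp9 are above WT recovery (20.8 to 33.5 CPM) and within Cldn2KO recovery (34.3 to 39.5 CPM).

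Among initiator caspases Casp2 rose most in Cldn2KO recovery, from 66.9, 64.0 and 53.4 CPM to 174, 166 and 154 CPM (log2 1.42, SE 0.229, edgeR adjusted p = 0.000963). Casp8, which acts downstream of death receptors and cleaves Bid, rose there as well (log2 0.64, SE 0.163, adjusted p = 0.013). In WT recovery Casp2 was at log2 0.55 (adjusted p = 0.0879) and Casp8 at log2 0.38 (adjusted p = 0.102). Casp2 had 66.0, 137 and 69.6 CPM in WT controls, the highest being replicate 2, and 147, 105 and 148 CPM in WT recovery. The responses of the genotypes did not differ by the test for Casp2 (adjusted p = 0.173) or Casp8 (adjusted p = 0.596).

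Of the remaining BH3-only genes Pmaip1, encoding Noxa, the selective partner of Mcl-1, fell in recovery together with Mcl1. It had 85.8, 31.0 and 79.1 CPM in WT controls and 37.6, 14.6 and 37.6 CPM in WT recovery, at log2 −1.12 (SE 0.348, edgeR adjusted p = 0.0312). In Cldn2KO it had 70.3, 75.6 and 54.2 CPM in controls and 31.4, 23.7 and 33.6 CPM in recovery (log2 −1.17, SE 0.348, adjusted p = 0.0278). Bcl2l11, encoding Bim, rose in Cldn2KO recovery (log2 1.29, SE 0.428, adjusted p = 0.0455), where 1 library had 36.8 CPM and the others 18.1 and 16.8 CPM against 9.17 to 10.8 CPM in controls. In WT recovery Bik (log2 1.06, adjusted p = 0.00693) and Bad (log2 0.44, adjusted p = 0.0433) rose.

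Other called genes were Cycs, which encodes cytochrome c (log2 0.83, edgeR adjusted p = 0.0135), and Aifm1 (log2 0.49, adjusted p = 0.0218), both higher in WT recovery. Xiap, a direct inhibitor of caspases, rose in Cldn2KO recovery (log2 0.76, adjusted p = 0.023). After AOM/DSS in WT the effector relative Bok (log2 1.43, adjusted p = 0.0236) and Bik (log2 0.83, adjusted p = 0.0412) rose. The WT AOM/DSS value of Bok rested on replicate 3, at 81.2 CPM against 26.6 and 34.0 CPM in the others, and without it was log2 0.79 (adjusted p = 0.116). Both AOM/DSS calls were also lost without WT control replicate 2, with Bok at log2 1.20 (adjusted p = 0.0979) and Bik at log2 0.76 (adjusted p = 0.142), and with the Hoxb13 term, at log2 1.22 (adjusted p = 0.0917) and log2 0.78 (adjusted p = 0.133).

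All of the 6 WT and 6 Cldn2KO recovery calls in these genes were lost with the Hoxb13 term, which left 0 of 6 in each genotype. In WT recovery the fold changes of Bik (log2 1.19, edgeR adjusted p = 0.0598), Aifm1 (log2 0.51, adjusted p = 0.132) and Bad (log2 0.46, adjusted p = 0.194) were no smaller with the term, while Casp6 was at log2 0.45, Cycs at log2 0.45 and Pmaip1 at log2 −0.05. In Cldn2KO recovery Casp2 was at log2 0.41, Casp6 at 0.43, Casp8 at 0.27, Bcl2l11 at 0.455, Xiap at 0.20 and Pmaip1 at 0.23, the last opposite in sign. WT control replicate 2, which alone sets that term, lay inside the WT recovery range for 1 of the 6 genes called in WT recovery, Pmaip1 (31.0 CPM against 14.6 to 37.6 CPM). It lay between the other WT controls and WT recovery for Casp6 (42.5 CPM) and Cycs (324 CPM), among the other controls for Bad (44.5 CPM) and Aifm1 (87.4 CPM), and below every other control for Bik (2.88 CPM). Its 137 CPM of Casp2, which was not called in WT, were inside the WT recovery range of 105 to 148 CPM. Without that library 5 of the 6 WT recovery calls held. With the Xist term 2 of the 6 in WT and 3 of the 6 in Cldn2KO held.

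Leaving out each of the 6 libraries of a comparison in turn separated these genes further. The calls of Bik in WT recovery and of Casp2 in Cldn2KO recovery held in all 6 refits. In WT recovery Casp6 and Bad held in 1, Aifm1 in 2, Pmaip1 in 3 and Cycs in 4 of the 6, at adjusted p-values up to 0.136, 0.228, 0.0637, 0.138 and 0.0707. In Cldn2KO recovery Bcl2l11 held in 1, Pmaip1 in 2, Xiap in 3, Casp8 in 4 and Casp6 in 5 of the 6, at adjusted p-values up to 0.209, 0.109, 0.102, 0.0594 and 0.0518. The losses of Casp6, Casp8 and Xiap in Cldn2KO recovery included the refit without Cldn2KO control replicate 3, and Bcl2l11 was at log2 0.84 without Cldn2KO recovery replicate 1. After AOM/DSS in WT Bik held in 1 of the 6, and Bok in 4, both being lost without WT AOM/DSS replicate 3 or WT control replicate 2.

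Among 9 p53 targets outside the family, 3 were called in WT recovery (1 higher, 2 lower), 2 in Cldn2KO recovery (both lower) and 1 in WT AOM/DSS (lower), and 0 in Cldn2KO AOM/DSS or between genotypes. The shares over all genes were 22.2%, 19.4% and 10.4% in the first 3 of these. Cdkn1a, the p53-induced cell cycle inhibitor, fell in WT recovery (log2 −1.16, edgeR adjusted p = 0.00217) and after AOM/DSS in WT (log2 −1.18, adjusted p = 0.00824). With the Hoxb13 term its WT recovery value was log2 −1.06 (adjusted p = 0.0309). Its WT AOM/DSS call held under 12 of the 13 alternatives, at log2 −1.245 to −1.083 over all of them. Bbc3 and Bax, members that p53 also induces, were at log2 −0.01 and 0.45 in WT recovery, with the adjusted p of 0.983 for Bbc3 and 0.137 for Bax.

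The genes whose log2 CPM was most like that of a member were found over all 18 libraries, among genes outside the lists. They were Kyat1 (Pearson r 0.949), P4ha1 (0.942) and Otub1 (0.936) for Mcl1, and Tctn3 (0.798), Kcnk1 (0.765) and Sowaha (0.762) for Bcl2. For Bcl2l1 they were Szrd1 (0.892), Smap2 (0.891) and Arhgdia (0.881). For the effectors they were Pdcd2l (0.888), Cdc34 (0.885) and Ak6 (0.855) with Bax, and Crb3 (0.865) and Nfkbib (0.847) with Bak1. For the BH3-only members they were Slc23a4 (0.879), Fcgr4 (0.832) and Cdc25b (0.826) with Bid, Dock11 (0.893), Mmp13 (0.877) and Dirc2 (0.863) with Bmf, and Tmem154 (0.834), Qars (0.789) and Runx2 (0.783) with Bbc3. Group means, sequencing depth and cell composition are shared by all of these points.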

How the data were processed

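Total RNA from colon was sequenced for 18 libraries in 6 groups of 3. The authors deposited raw counts of reads per gene in 36 columns (2 lanes for each library), made with featureCounts (Subread) on GRCm38. The submitters' processing notes name HISAT2 as the aligner, whereas the study's methods name TopHat2, and no version of either is given in the sources used here. Lanes were summed. The groups came from the genotype and treatment labels, and replicate numbers of the control libraries from their titles.

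Counts were fitted with edgeR 4.0.16 (R 4.3.3): filterByExpr, TMM scaling, robust quasi-likelihood fit of all 18 libraries with 1 mean per group, and Benjamini-Hochberg adjustment over the 16937 genes tested, called at an adjusted p under 0.05. The filter left out 30792 of 47729 genes. CPM use TMM-scaled totals, and levels per kilobase use the exon length in the table. Correlations used log2(CPM + 0.5). Alternatives were RLE scaling, no filter, DESeq2 1.42.0, limma-voom (limma 3.58.1) with sample weights, only the groups compared, terms for Xist or Hoxb13, a replicate block and leaving out each library. The fits were tested on simulated data.

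Depth ran from 17.6 to 27.4 M reads per library. Summed lanes differed by 1.08 to 1.17 in chi-square per degree of freedom and replicate libraries by at least 11.3 over 18 pairs, so no library was counted as a repeat. The biological coefficient of variation was 0.315. The rule for named genes was all 8 members, the listed pathway genes that were called, and the 3 genes most correlated with each member. Some genes under this rule are not reported here. Members and lists were chosen with earlier results of these data known. Of the members, 6 have the same span in GENCODE M21 as in the table, and coordinates are those of the table. Symbols were found for 47224 of the 47729 gene IDs. The numbers 1 to 3 of the control titles did not pair the libraries (same-number correlations 0.174, 0.0211 and 0.0756).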

Additional observations from a re-analysis of the deposited data

How the results depend on the processing

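The number of members called by edgeR was 0 in the genotype comparisons, 1 (Mcl1) in each treatment comparison and 0 for both differences of responses. It became 1 with DESeq2 and 4 with limma-voom for Cldn2KO against WT in untreated colon. With the Hoxb13 term it became 0 for recovery in WT and 0 for recovery in Cldn2KO, and with limma-voom 4 and 2. For AOM/DSS in WT it became 0 without the filter, 0 with only the groups compared, 2 with DESeq2 and 2 with limma-voom. For AOM/DSS in Cldn2KO it became 0 with the Xist term, 2 with DESeq2 and 4 with limma-voom. limma-voom called 1 for the recovery difference of responses. Leaving out each library in turn gave 0 to 1 for AOM/DSS in WT and 0 to 1 in Cldn2KO. The cause was not tested. With the Hoxb13 term Pmaip1 reversed in Cldn2KO recovery, to log2 0.2347.

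Over the alternatives the genes called ranged from 25 to 2552, 3 to 1902 and 1 to 4 between genotypes in untreated colon, recovery and AOM/DSS. They ranged from 1477 to 8125 and 133 to 5757 for recovery in WT and Cldn2KO, from 7 to 3033 and 4 to 3107 for AOM/DSS in WT and Cldn2KO, and from 0 to 1762 and 0 to 299 for the differences of responses. The replicate block, fitted for the control libraries only, called 0 members and 179 genes against 199 without it, and the control numbers are not shown to mark a pairing. Among the members depth limited Bbc3 most, with 51 to 211 reads per library.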
